A study of Aspergillus luchuensis with 6 samples.

Results

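The 100 locus tags described here are the transcripts that took the most reads in rice koji of wild-type Aspergillus luchuensis and that kept a broadly similar level in the mutant U1. They were chosen by their reads alone. A level was expressed as CPM, the count of a tag per 1000000 counts of its library, and averaged over the 3 libraries of a strain. Tags with a wild-type mean of 1000 CPM or more and a U1 to wild-type ratio above 0.5 and below 2 were taken, and the stretch AKAW_05980 to AKAW_06045 was left out. Of 11488 tags, 110 reached the level, 100 met both limits, and 10 were left out because U1 held 0.5 times the wild-type level or less. None of the 66 tags of the stretch reached 1000 CPM in wild type. The levels and ratios below are therefore descriptions of what the choice used.

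The libraries came from rice koji, which is steamed rice overgrown by the fungus, with RNA of whole cells. The first group was the strain RIB2601, labelled wild type, with 3 libraries. The second was U1, a mutant in the RIB2601 background described as strong in starch breakdown and, per the series title, raised with an ion beam, also with 3 libraries. U1 is a single mutant strain. The labels name no mutated gene, so no targeted transcript could be looked at as a check. They do not state if each library had its own culture. Age, temperature and humidity of the koji are not given in the labels.

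Koji moulds live on the surface and inside of rice grains and secrete enzymes, among them amylases, glucoamylase and acid proteases, that release sugars and amino acids from the grain. A. luchuensis is the black and white koji mould of shochu and awamori and is known for excreting citric acid. In growing filamentous fungi the most abundant messengers usually include those of the translation machinery, of sugar breakdown and of secreted enzymes. The deposited counts carry only locus tags, none of which occurs in the reference table used here, so no tag below is given a gene name, a role or a sequence. Markers of the organism and of its cell types could not be looked up for the same reason. CPM is not divided by gene length, so ranks order the reads that tags took and not the number of molecules.

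Library totals ran from 4025119 to 5064126 counts in wild type and from 4427719 to 8420828 in U1, with U1 replicate 1 the deepest. Each of the 100 tags had between 3687 and 63807 counts in every library, which puts the counting error of a single value between 0.396% and 1.65%. All 100 were among the 8790 tags kept by the filter on low counts. The lowest of them was far above the median tested tag, which stood at 43.6 CPM in wild type, and at 46.7 CPM in U1. In whole-culture RNA, fewer cells of a kind and less RNA per cell cannot be told apart.

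Together the 100 tags took about 20% of all reads, and a little less in U1 than in wild type. Their share was 21.5%, 21.4% and 21.2% of the counts in the wild-type replicates 1 to 3 and 20.6%, 19.5% and 20.1% in the U1 replicates 1 to 3. All U1 libraries lay below all wild-type libraries, with means of 21.4% ± 0.15 and 20.1% ± 0.505 (SD, n = 3 each). By place in the list, the difference sat at the top. The list was chosen and ordered by wild-type level, so a lower U1 share toward the top is partly built in. The shares by place are descriptions only. The 5 most abundant tags of wild type, all among the 100, took 3.82% ± 0.0108 of the counts there against 3.26% ± 0.0555 in U1. The first 10 of the 100 took 5.82% ± 0.0617 and 5.12% ± 0.00824 (SD, n = 3 each). These 10 leave out AKAW_02430 and AKAW_07928, which ranked 6 and 7 among all tags in wild type. The upper 50 went from 15.2% ± 0.0851 to 13.7% ± 0.305, again without overlap. The lower 50 held 6.14% ± 0.0661 in wild type against 6.37% ± 0.235 in U1. Here every U1 library, from 6.197% to 6.64%, lay above the wild-type libraries, from 6.07% to 6.186%, but the gap was very narrow. These are shares of library totals, and the same comparison was not made with another scaling. The counts of the whole library are a fixed sum. The 10 tags left out for their low ratio took 2.71% ± 0.196 of the counts in wild type against 0.94% ± 0.0822 in U1 (SD, n = 3 each), so the other tags of a U1 library divide a larger remainder.

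**Figure D1:**
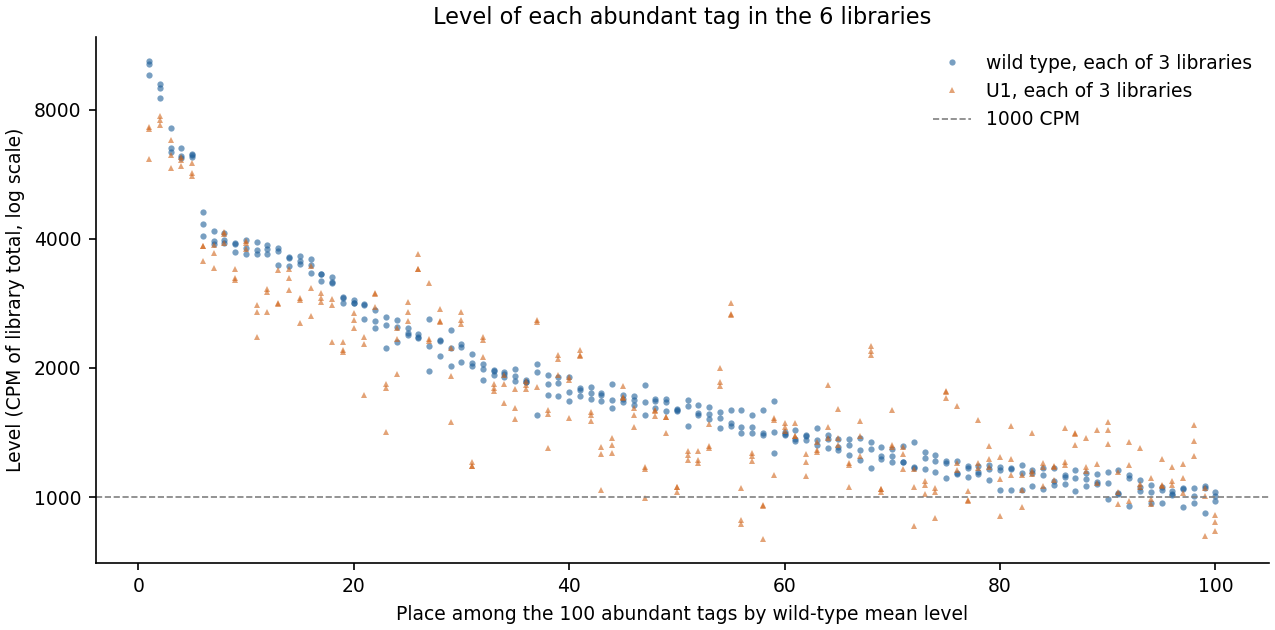
Level of each of the 100 tags in every library (CPM of the library total, log scale) against its place in wild type, with circles for the 3 wild-type and triangles for the 3 U1 libraries. Among the 100, the 5 highest tags stand apart from the rest in both strains, and tags left out by the ratio limit are not shown. The U1 triangles lie below the circles for most of the first 50 tags, and between places 76 and 100 most lie above them.

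AKAW_08979 and AKAW_11452 were the highest tags of the whole data set, and they changed places between the strains. AKAW_08979 stood at 10396, 10239 and 9626 CPM in the wild-type libraries and 7299, 6146 and 7193 CPM in the U1 libraries. AKAW_11452 stood at 9159.5, 8981 and 8522 CPM in the wild-type libraries and 7577, 7348 and 7745 CPM in the U1 libraries. The first led every wild-type library and the second led every U1 library, with no overlap between the pair within either strain. In U1 the gap was narrow: the lowest value of AKAW_11452 was only just above the highest value of AKAW_08979. Both had lower CPM in U1, by ratios of 0.682 and 0.85, so the exchange came with the larger decrease of AKAW_08979. Its share of all reads was 1.01% in wild type and 0.688% in U1.

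The next places were held by AKAW_02484, AKAW_01541 and AKAW_08088 in both strains, in that order by mean. AKAW_02484 had 6353, 6516 and 7229 CPM in the wild-type libraries and 5841, 6806 and 6280.4 CPM in the U1 libraries. AKAW_01541 had 6229, 6176 and 6503 CPM in the wild-type libraries and 6216, 6109 and 5909 CPM in the U1 libraries. AKAW_08088 had 6214, 6294 and 6260.4 CPM in the wild-type libraries and 5693, 5613 and 6005 CPM in the U1 libraries. Within each strain the libraries of AKAW_02484 overlapped those of AKAW_01541, and those of AKAW_01541 overlapped those of AKAW_08088, so the order of these 3 places is not set beyond the spread. AKAW_08088 was the tag with the smallest spread in wild type, at a coefficient of variation of 0.644%, and its U1 libraries all lay below its wild-type libraries. Within the 100 a step followed. The lowest of the 5 was at 6256 ± 40.3 CPM in wild type and the next, AKAW_04376, at 4336 ± 279.7 CPM (SD, n = 3 each). AKAW_02430 and AKAW_07928, left out by the ratio limit, stood in between in wild type, at 6245 ± 494 CPM and 4639 ± 455 CPM (SD, n = 3 each). The wild-type libraries of AKAW_02430, at 6066, 6804 and 5866 CPM, overlapped those of AKAW_02484, AKAW_01541 and AKAW_08088. It ranked 3rd in wild-type replicate 2, so its place relative to them in wild type is not set either.

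Below that step the tags lay close together. AKAW_04376 ranked 8th and AKAW_02170 9th among all tags in both strains, at means of 4336 ± 279.7 CPM and 4008 ± 149 CPM in wild type, against 3751 ± 167 CPM and 3666 ± 224 CPM in U1 (SD, n = 3 each). AKAW_08894 and AKAW_07372 kept their level while the tags around them were lower in U1. AKAW_08894 had 3965, 3900.1 and 4131 CPM in the wild-type libraries and 4105, 4149 and 3913 CPM in the U1 libraries. AKAW_07372 had 3798, 3679 and 3966 CPM in the wild-type libraries and 3918, 3959.6 and 3794 CPM in the U1 libraries. The strains overlapped for both, and both nevertheless moved up, from rank 10 to 6 and from rank 13 to 7. The sign of their difference depends on scaling: the ratio of CPM was 1.01 and 1.02, and the fitted log2 fold change after trimmed-mean (TMM) scaling was -0.05 ± 0.0791 and -0.04 ± 0.0789 (SE).

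AKAW_00900 ranked 11th among all tags in both strains, at 3835 ± 101 CPM in wild type against 3281 ± 97.6 CPM in U1 (SD, n = 3 each). Within the 100 alone it went from place 9 to 11. AKAW_02026 and AKAW_06285 were nearly equal in wild type and differed more by their means in U1. The first had 3758, 3927 and 3678 CPM in the wild-type libraries and 2706, 2361 and 2798 CPM in the U1 libraries, and the second had 3687, 3866 and 3793 CPM in the wild-type libraries and 3009, 2705 and 3054 CPM in the U1 libraries. They overlapped with each other in both strains, neither overlapped between the strains, and AKAW_02026 went from rank 14 to 24 while AKAW_06285 went from 15 to 16. AKAW_07726 entered the first 12 of the 100 in U1 with 3229.8 ± 179 CPM, at a lower level than its 3562 ± 96.7 CPM in wild type (SD, n = 3 each). Over the whole list, the libraries of a tag lay wholly above those of the next tag in 6 of 99 neighbouring pairs in wild type and in 3 of 99 in U1. Single places inside the list are therefore mostly within the spread.

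The ratio of U1 to wild type ran from 0.574 to 1.79 with a median of 0.949, against a median of 1.06 over all tested tags. By CPM, 58 tags were lower and 42 higher in U1. Most differences were small: 33 tags lay within 1.1-fold of equality and 76 between a ratio of 0.8 and its reciprocal of 1.25, while 16 had a ratio of 0.8 or less and 8 had one over 1.25. The CPM of the strains did not overlap for 43 tags that were lower and 21 that were higher in U1, where the same held for 14.3% and 26.1% of all tested tags. With edgeR's quasi-likelihood test on all tested tags and Benjamini-Hochberg adjustment, 35 of the 100 were called lower and 9 higher at an adjusted p under 0.05. Over all tested tags 24.5% were called, 13.1% lower and 11.4% higher. The rule bounded this ratio, and nothing is read from these counts. The count of lower tags was 23 without wild-type replicate 2 and 48 without U1 replicate 1, and that of higher tags was 5 without wild-type replicate 3. The median fitted log2 fold change of the 100 was -0.148, and -0.075 when library totals alone set the scale, against 0.00504 and 0.077 over all tested tags.

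Where a tag stood in the list went with its ratio, which is a description only. The list is ordered by the wild-type mean, and that mean is also the denominator of the ratio. A lower ratio toward the top is therefore partly built in. Among the 25 highest tags, from 2424 CPM up, 4 had more CPM in U1 and the median ratio was 0.882. Among the 25 lowest, from 1003 to 1159 CPM, 18 did and the median ratio was 1.09. The groups of 25 between had median ratios of 0.934 and 0.947. From the first to the last 25, the tags called lower numbered 13, 8, 12 and 2. Those called higher numbered 0, 2, 4 and 3. Over all tested tags 13.1% were called lower and 11.4% higher, and nothing is read from these counts either. Without U1 replicate 1 the median ratio of the last 25 was 1.03 and 20 of them were over 1, and that of the first 25 stood at 0.869. The level was limited in wild type only. With the same limits set on the U1 level, 111 tags qualified, 94 of them among the 100, and their median ratio was 1.03, with 59 higher and 52 lower in U1 by CPM.

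**Figure D2:**
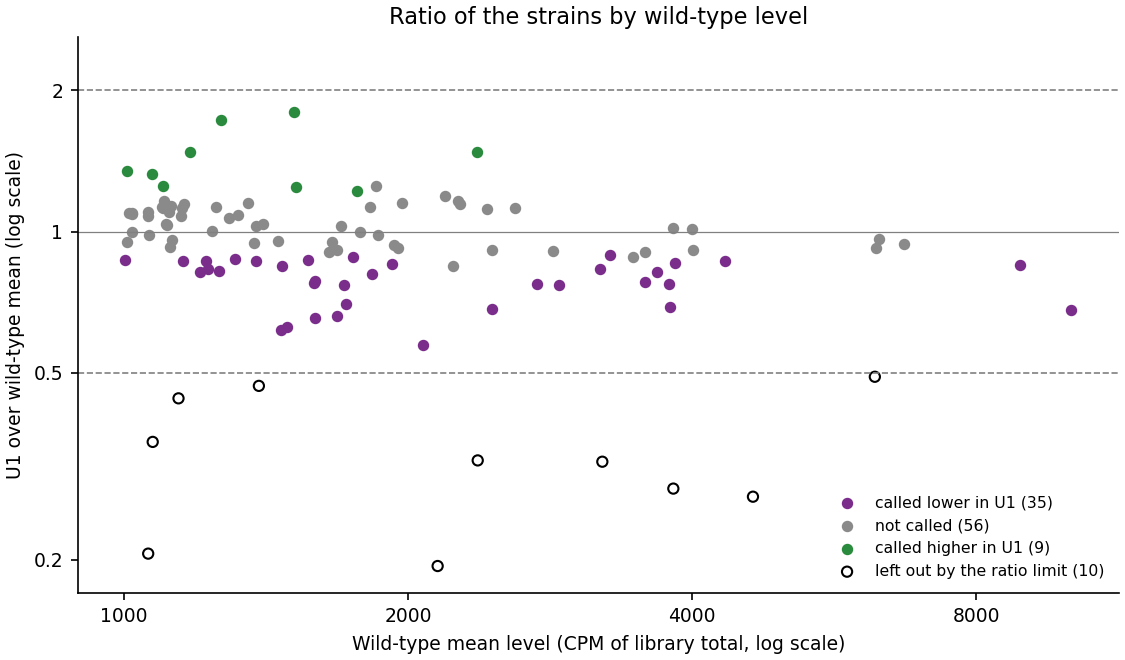
U1 over wild-type mean level against the wild-type mean (both log scales), 1 point per tag, with the ratio limits of 0.5 and 2 as dashed lines. Filled points are the 100 tags by edgeR call, 35 lower, 56 not called and 9 higher, and open circles are the 10 tags left out, all below 0.5. No tag at this wild-type level lay above 2.

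The ranking itself shifted by a median of 10 places among all tags, and 52 of the 100 moved by at most 10 places. Within a strain, the ranks of a tag spanned a median of 7 places over the wild-type libraries and 11.5 over the U1 libraries, and at most 29 and 88. The median shift between the strains lay between these median spans. A shift compares ranks of strain means, whereas a span is the full range over single libraries. Setting them side by side therefore does not show if the shifts exceed the spread. Compared by single libraries, the ranks of the strains did not overlap for 34 tags higher and 22 lower in U1, and overlapped for 44. In U1 55 tags stood higher, 37 lower and 8 at the same rank. Of those that stood higher, 13 had lower CPM in U1 than in wild type. The 10 tags left out ranked from 6 to 102 in wild type and from 13 to 908 in U1. Counted within the 100 alone, 50 moved up and 42 down. The last of the 100 ranked 110 in wild type, a rank that the choice by wild-type level caps, and 155 in U1, where no such limit applied and 6 tags were under 1000 CPM.

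The ranks of a tag in the 3 U1 libraries lay wholly above those in wild type for 34 tags and wholly below for 22, where 18.7% and 19.1% of all tested tags did so. On CPM after TMM scaling the same count was 11 above and 48 below, where 18.2% and 19.5% of all tested tags did so, so the balance of directions depends on whether ranks or levels are compared. Spearman's rho over the 100 tags, which share gene lengths and annotation in every library, was 0.97 to 0.987 between wild-type libraries and 0.925 to 0.961 between U1 libraries. Between libraries of different strains it was 0.791 to 0.857, below every value within a strain. Among the first 10 tags of all, 8 of the 100 stood there in wild type and all 10 in U1 were of the 100, with 8 in both lists. For the first 50 tags of all these numbers were 44, 49 and 40.

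AKAW_01495 made the largest upward move on a log scale of rank. It had 2342, 2399 and 2359 CPM in the wild-type libraries and 3404, 3398 and 3683 CPM in the U1 libraries. The U1 libraries were 1.48 times as high, with no overlap, and its ranks went from 33, 31 and 28 to 11, 11 and 9, which placed it 10th in U1. AKAW_04328 had the highest ratio of the 100, 1.79, with 1487, 1465 and 1594 CPM in the wild-type libraries and 2655, 2826 and 2675 CPM in the U1 libraries. Its rank went from 61 to 20. AKAW_06819 came next with a ratio of 1.73, at 1297, 1342 and 1167 CPM in the wild-type libraries and 2193, 2143 and 2255 CPM in the U1 libraries. These ranked 74, 72 and 80 in the wild-type and 34, 31 and 31 in the U1 libraries. AKAW_03283 followed with 1216, 1202 and 1109 CPM in the wild-type libraries and 1767, 1699 and 1756 CPM in the U1 libraries. All 4 were called higher, at fitted log2 fold changes of 0.49 ± 0.0789, 0.77 ± 0.0777, 0.72 ± 0.0831 and 0.49 ± 0.0795 (SE; edgeR with TMM scaling). AKAW_11452 and AKAW_07372, described above, were the other 2 of the 6 largest upward moves on the log scale whose ranks did not overlap. AKAW_11452 moved from rank 2 to 1 and was called lower by level. The CPM of AKAW_07372 overlapped between the strains.

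Another 5 tags were called higher and are named here after their values were seen. AKAW_03789 had a ratio of 1.35 and went from rank 108 to 61. AKAW_02166 had a ratio of 1.32 and went from rank 99 to 55. AKAW_02761, AKAW_04266 and AKAW_06977 had ratios of 1.25, 1.24 and 1.22. In all 9 tags called higher the CPM of the strains did not overlap, and AKAW_01495 was the one among them above 2000 CPM in wild type.

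AKAW_06561 and AKAW_10133 were among the 6 largest downward moves on the log scale of rank. AKAW_06561 had 1592, 1412 and 1395 CPM in the wild-type libraries and 953, 799 and 956 CPM in the U1 libraries, and its ranks went from 58, 64 and 67 to 145, 171 and 120. AKAW_10133 had 1456, 1597 and 1411 CPM in the wild-type libraries and 1048, 882 and 865 CPM in the U1 libraries and went from rank 62 to 139. Both left the 100 highest tags in every U1 library, and within U1 their libraries differed from each other by more than those of most tags here. AKAW_04679, at 2152, 2055 and 2021 CPM in the wild-type libraries and 1181, 1185 and 1207 CPM in the U1 libraries, had the lowest ratio of the 100, 0.574, with 3 nearly equal U1 libraries. It went from rank 37 to 79. AKAW_02645 had 1608, 1592 and 1586 CPM in the wild-type libraries and 1057, 1054 and 1028 CPM in the U1 libraries. It was the steadiest tag of all 100, with coefficients of variation of 0.74% and 1.54% in the strains, and went from rank 56 to 103. The fitted log2 fold changes of the 4 were -0.77 ± 0.0937, -0.75 ± 0.095, -0.87 ± 0.0769 and -0.68 ± 0.0753 (SE; edgeR with TMM scaling), and all 4 were called lower. AKAW_08979 and AKAW_02026 were the other 2 of the 6 largest downward moves, at -0.62 ± 0.0931 and -0.60 ± 0.0889 (SE).

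Among the 35 tags called lower, the CPM of the strains did not overlap for 35, and their ratios ran from 0.574 to 0.89 with a median of 0.818. A further 20 tags without a call had CPM that did not overlap either. The 56 tags without a call had ratios from 0.843 to 1.25. The sign of the fitted fold change differed between TMM, DESeq2, upper-quartile and total scaling for 8 tags, none of them called.

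**Figure D3:**
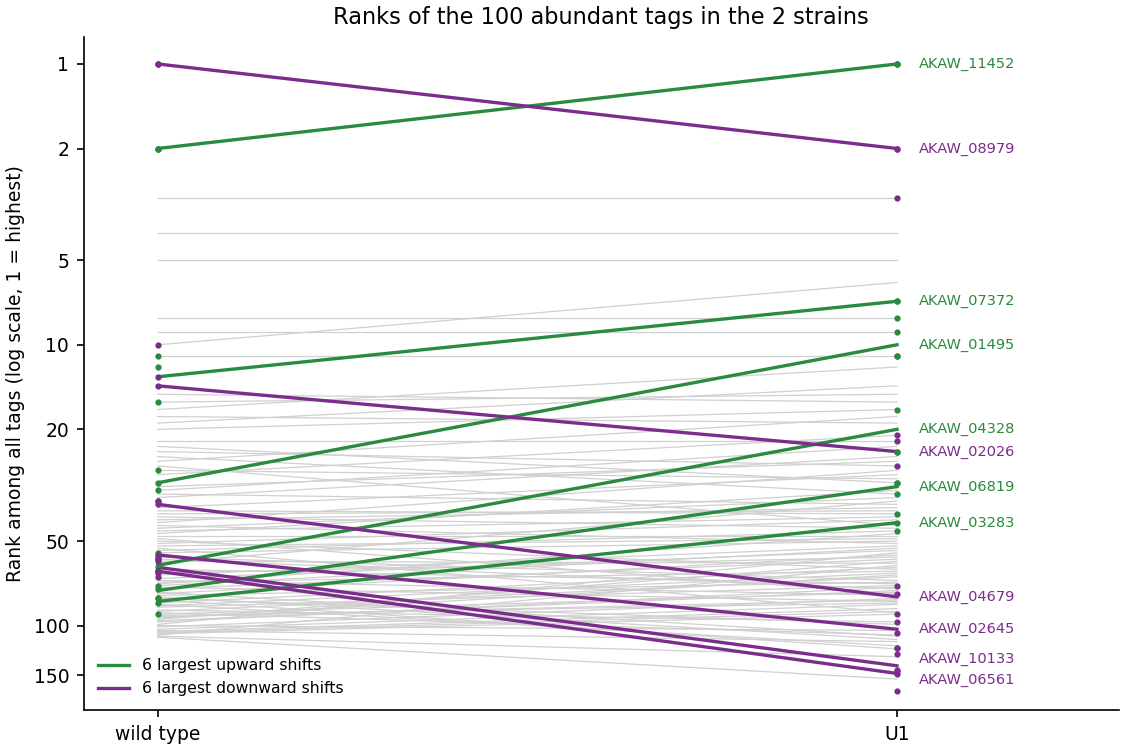
Rank of each of the 100 tags among all tags in wild type and U1 (log scale, 1 is the highest), with lines joining the ranks of the strain means. Green and purple lines are the 6 largest upward and downward shifts whose ranks did not overlap, with dots for the 3 libraries of each strain, and the highest tags exchanged ranks 1 and 2.

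The spread between libraries was a property that the choice of tags did not use. The median coefficient of variation of the 100 was 4.02% in wild type and 6.1% in U1, against a counting error of 1.19% and 1.1%. It was larger in U1 for 77 of the 100. Values over 10% were found for 3 tags in wild type and 28 in U1. Tags at 500 to 1000 CPM in wild type, 229 in number, had medians of 3.73% and 8.12%. These were taken by wild-type level alone, so their U1 levels were not bounded by the ratio limits as those of the 100 were. U1 had the wider spread in both sets of tags. At 3 libraries a strain, a coefficient of variation of a single tag is itself imprecise.

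The steadiest tags after AKAW_02645 were AKAW_07580 and AKAW_10326. AKAW_07580 had 1415, 1395 and 1405 CPM in the wild-type libraries and 1487, 1459 and 1424 CPM in the U1 libraries. AKAW_10326 had 1852, 1873 and 1849 CPM in the wild-type libraries and 1820.2, 1784 and 1868 CPM in the U1 libraries. For AKAW_07580 the U1 libraries were all above the wild-type libraries by CPM, and its fitted log2 fold change was -0.02 ± 0.0757 after TMM scaling and 0.05 with library totals alone, while AKAW_10326 overlapped between the strains. The most variable tags were AKAW_02126, AKAW_09786 and AKAW_05193. AKAW_02126 had 1551, 1956 and 2045 CPM in the wild-type libraries and 2579.8, 2564 and 1800.2 CPM in the U1 libraries, so that wild-type replicate 1 and U1 replicate 3 lay low. AKAW_09786 had 2602, 1971 and 2245 CPM in the wild-type libraries and 2335, 2305 and 3152 CPM in the U1 libraries, with U1 replicate 3 above the others. AKAW_05193 had 1677, 1419 and 1269.5 CPM in the wild-type libraries and 1529.7, 1124 and 1508 CPM in the U1 libraries. The strains overlapped for AKAW_05193 and AKAW_09786 and for AKAW_02126, and none of the 3 was called.

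**Figure D4:**
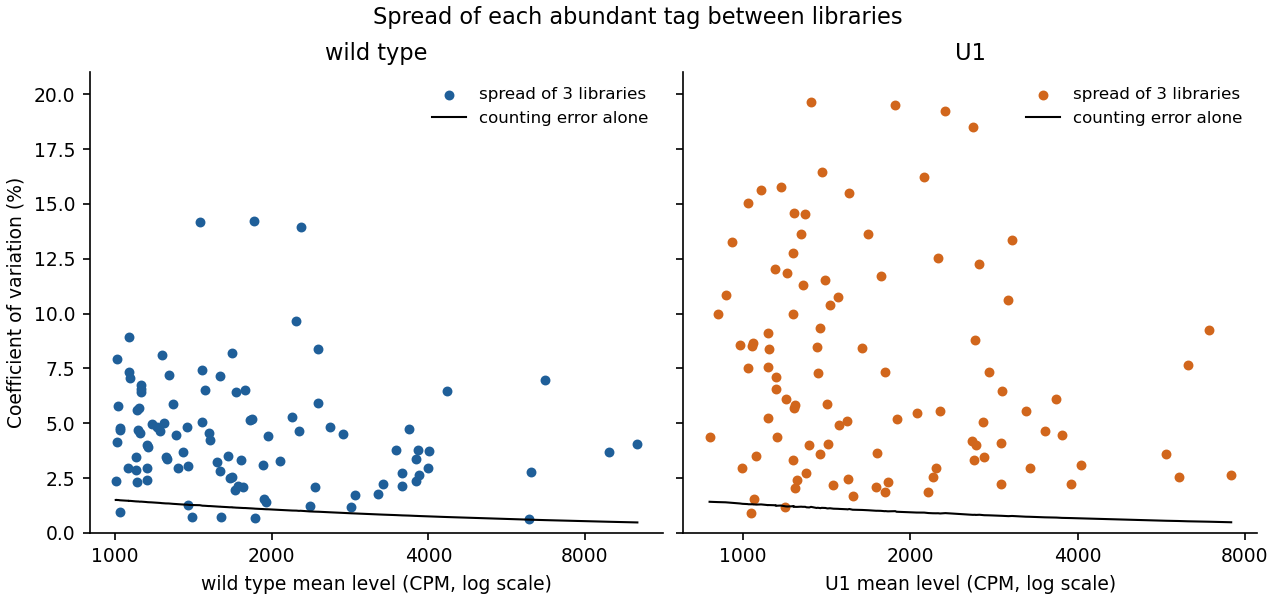
Coefficient of variation over the 3 libraries of a strain against the mean level (CPM, log scale), 1 point per tag, with the error from counting alone as a line. Most points lie above the line in both panels, and the U1 points reach higher, with 28 tags over 10% against 3 in wild type.

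Single libraries stood apart for many of the 100 in both strains. U1 replicate 1 was the highest of its strain for 48 of the 100 tags, where this held for 26.3% of all tested tags, and U1 replicate 2 was the lowest for 49, where this held for 28.3%. With TMM-scaled CPM the numbers were 69 of the 100 against 34.6%, and 54 against 34.6%. In wild type, replicates 1 to 3 were the highest for 35, 32 and 33 tags and the lowest for 27, 26 and 47. Wild-type replicate 3 was the lowest for 34.7% of all tested tags, and with TMM-scaled CPM it was the lowest for 54 of the 100 against 38.3%. It lay at least 1.1-fold below both other wild-type libraries for 10 tags. U1 replicate 1 stood at least 1.1-fold above both other U1 libraries for 19 tags, and U1 replicate 2 at least 1.1-fold below both for 19, with 4 tags in both groups. The opposite patterns, replicate 1 below and replicate 2 above both others, were seen for 4 and 3 tags. These groups were drawn from the values, and no test was made of them.

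The 19 tags high in U1 replicate 1 included 16 of the lower 50 and had a median ratio of 1.1, which was 1.02 without that library. None was called higher and 3 were called lower, where 11.4% and 13.1% of all tested tags were. The U1 values chose both groups of 19, so nothing is read from their ratios or calls. AKAW_03906, named after its values were seen, had 1130.1, 1211 and 1136 CPM in the wild-type libraries and 1627, 1198 and 1155 CPM in the U1 libraries and the largest U1 spread of all, 19.7%. Its U1 replicates 2 and 3 overlapped wild type. The 19 tags low in U1 replicate 2 had a median ratio of 0.821, and 0.862 without that library. They included AKAW_08979, AKAW_02026 and AKAW_06285 of the first 12, and 10 of them were called lower. U1 replicate 1 is also the deepest library, and the part of depth in this pattern was not tested.

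**Figure D5:**
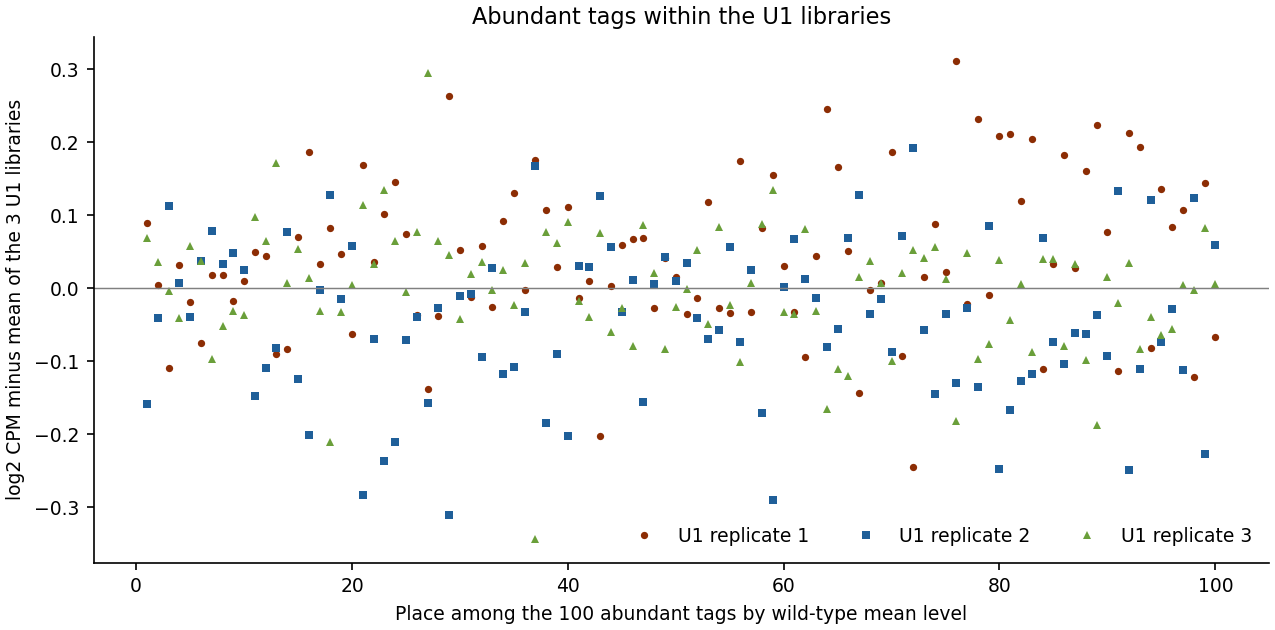
Deviation of each U1 library from the mean of the 3 U1 libraries (log2 CPM) against the place of the tag in wild type. Replicate 1 lies above 0 for most tags of the last 25 places, and replicate 2 lies well below 0 for tags across the list. Single tags depart from this, such as AKAW_02126, where replicate 3 has the lowest point of all at -0.343.

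Along the tag numbers the 100 were scattered. Numbered from 1 up in blocks of 1000 tags, every full block held 4 to 14 of them, and the median step from one to the next was 65 numbers. No 3 consecutive numbers were all among the 100. Adjacent numbers occurred 3 times, for AKAW_03746 and AKAW_03747, AKAW_05579 and AKAW_05580, and AKAW_04325 and AKAW_04326. The ratios within these pairs were alike, at 1.12 and 1.13, 1.12 and 1.15, and 0.949 and 0.934. AKAW_04328 lay 2 numbers beyond AKAW_04326 and differed from it in direction, at 1.79. AKAW_09784 and AKAW_09786, also 2 numbers apart, were at 1.19 and 1.14, and AKAW_04376 and AKAW_04379, 3 apart, at 0.865 and 0.908. Whether adjacent numbers share reads was not tested, since positions and sequences of the tags were not used here.

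The tags next to an abundant tag were mostly not abundant. The 192 tags directly before or after one of the 100, other than the 100 themselves, had a median wild-type level of 49.8 CPM, against 24.4 CPM over all tags. A level of 100 CPM or more was reached by 27.1% of them and by 19.9% of all tags. The median ratio of the 171 tested neighbours was 1.05, close to that of all tested tags given above.

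The limits of the choice cut through close values. Just inside 1000 CPM were AKAW_06108 at 1003 ± 23.8 CPM and AKAW_04325 at 1008 ± 79.9 CPM, and just outside were AKAW_03771 at 997 ± 29.2 CPM and AKAW_01236 at 996 ± 17.4 CPM in wild type (SD, n = 3 each). Nearest to the lower ratio limit were AKAW_04679 at 0.574 and AKAW_06561 at 0.616 inside, and AKAW_02430 at 0.491 and AKAW_10818 at 0.469 outside. The nearest to the upper limit were AKAW_04328 at 1.79 and AKAW_06819 at 1.73, with no tag outside it. AKAW_02430 and AKAW_07928 were the highest of those left out, ranked 6 and 7 in wild type. In U1 they ranked 13 and 68.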

How the data were processed

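RNA sequencing libraries of rice koji, 3 of wild-type RIB2601 and 3 of the mutant U1, were grouped by their titles. The authors deposited raw counts per locus tag, 1 table per library without normalization. Per the submitters' processing notes, reads were handled with Trimmomatic 0.32 and BWA 0.7.12; the counting program, genome build, annotation, strand and treatment of multiply matching reads are not given in the sources used. BWA does not split reads over introns, so counts of genes with many junctions may be low, and reads may be shared between similar or overlapping genes. Of 11488 tags, 0 matched the 12941 genes of the reference table.

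CPM were computed on library totals (Python 3.11.15, pandas 2.3.3). Strains were compared with edgeR 4.0.16 in R 4.3.3: filterByExpr, TMM factors, a robust quasi-likelihood fit on strain, two-sided, Benjamini-Hochberg adjusted over 8790 tags, called under 0.05. Standard errors were derived from the log2 fold change and the F statistic. Counting errors cover counting alone, and p-values only the spread between libraries, which may be technical. Libraries of a strain differed by more than sampling noise (chi-square over degrees of freedom 2.15 to 7.46), and all 6 were used. The code was tested on simulated data.

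The tags, lists and named tags were chosen with earlier results of these data known. Named were the 12 highest tags in each strain, the 6 largest shifts of log2 rank each way without overlap, the 3 steadiest and 3 most variable tags, groups of 3 consecutive numbers (none), and the 2 tags on each side of every limit. Alternatives were other scalings, DESeq2 1.42.0, other filters, a replicate block, a stricter threshold, other averages or denominators, and leaving out each library.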

Additional observations from a re-analysis of the deposited data

How the results depend on the processing

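The rule gave 99 to 101 tags when 1 library was left out, 103 with TMM-scaled library sizes, 100 with medians in place of means and 31 at 2000 CPM. Between 97 and 100 of the original tags were kept when a library was left out. Over all tags 2153 were called, 1002 higher and 1151 lower, and 1385 and 899 with library totals alone; 1416 were called at an adjusted p under 0.01 and 1625 to 2069 without 1 library. Of the 100, 35 were called lower and 9 higher. These were 22 and 6 at an adjusted p under 0.01, 23 to 48 and 5 to 9 without 1 library, and 42 and 9 with DESeq2's Wald test. The median fitted log2 fold change of the 100 was -0.148, -0.075 with library totals alone, -0.18 to -0.102 without 1 library, and -0.033 for tags chosen on the U1 level. The 100 took 22.0% of the wild-type counts once the 10 tags left out for their ratio were removed from the totals, and 20.3% of the U1 counts. Tags chosen on the U1 level, and totals without the 10 tags, were added after the data had been seen. The rank correlation between the strains was 0.842 by Spearman's rho, 0.831 to 0.85 without 1 library, and 0.919 as Pearson's r of log2 CPM. Ranks without overlap, 34 higher and 22 lower, became 11 and 48 with TMM-scaled CPM; the cause was not tested. None of the named tags with a call changed direction under any alternative.

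With the replicate number as a block, 32 of the 100 were called lower and 6 higher, and 2091 of all tags were called. Across tags, libraries with the same number deviated from their strain means with correlations of -0.037, -0.00049 and -0.068. Pairs with different numbers ran from -0.149, for wild-type replicate 1 and U1 replicate 2, to 0.173, for wild-type replicate 1 and U1 replicate 3. The same-number values give no sign of pairing by number, but they cannot show if any libraries were handled together.

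Depth did not limit the 100, whose lowest count was 3687. What limits them is 3 libraries per strain, a single mutant strain, levels that are not divided by length and shares that sum to a fixed total.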

Other observations

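Tags that reached 1000 CPM in U1 but not in wild type numbered 19, and 17 of them had a ratio under 2. They took 1.66% ± 0.0293 of the counts in wild type against 2.02% ± 0.107 in U1 (SD, n = 3 each). Of the 19, 3 were called higher by edgeR and 0 lower, where 11.4% and 13.1% of all tested tags were. Their level in U1 chose them, so nothing is read from this. AKAW_06404 had 399.9, 494 and 488 CPM in the wild-type libraries and 1218, 1039 and 1079 CPM in the U1 libraries and went from rank 376 to 88. AKAW_10935 had 544, 495 and 512 CPM in the wild-type libraries and 1054, 1092 and 1107 CPM in the U1 libraries and went from rank 327 to 95. These 2, named after their values were seen, were the ones with a ratio over 2, at 2.41 and 2.1, and neither overlapped between the strains. U1 replicate 1 was the highest U1 library for 12 of the 19.

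Reads were spread over more tags in U1. The number of highest tags that together held 25% of a library was 118, 117 and 124 in the wild-type libraries and 137, 155 and 149 in the U1 libraries. The strains did not overlap.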
